A study of Ovis aries with 40 samples.

Results

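The genes described here are the nuclear subunits of respiratory complex I, chosen by symbol alone: every gene named NDUFA, NDUFB, NDUFC, NDUFS or NDUFV with a number after the letters, and NDUFAB1, but no NDUFAF assembly factor. The rule gave 38 of the 9155 genes represented on the array, and all 38 had a mean signal above the detection limit of 61.8 and were tested among 6360 detected genes. Of these members, 36 encode subunits of the purified enzyme. NDUFA4 carries the family name but is now counted as a subunit of complex IV, and NDUFA4L2 is its hypoxia-inducible relative, and both were kept because the rule names them. Subunits encoded by mitochondrial DNA were not analysed here.

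The muscle came from 40 Poll Dorset sheep of 78 weeks of age, with 1 array of longissimus muscle RNA per animal. The animals, for which the labels give no treatment, were progeny of 6 industry sires that had been chosen as extremes for the breeding value of eye muscle depth. The high muscling group held 19 animals (8 of sire 11, 7 of sire 2 and 4 of sire 7), and the low muscling group held 21 (8 of sire 16, 5 of sire 17 and 8 of sire 5). Muscling thus describes the sire and not the muscle of the animal measured, every sire had progeny in 1 muscling group only, and the animals of a family share their sire. The p-values of comparisons between sires measure the spread between animals. Those of high against low muscling also allow for a correlation within sires, set to a common value for all genes.

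Complex I, the NADH:ubiquinone oxidoreductase of the inner mitochondrial membrane, takes electrons from NADH, passes them to ubiquinone and pumps protons that drive ATP synthesis. It is shaped like an L. The arm in the matrix binds NADH and flavin and carries the electrons along iron-sulphur clusters, and the arm in the membrane pumps protons. A conserved core does this chemistry, part of it encoded in mitochondrial DNA, and many accessory subunits encoded in the nucleus surround the core and are needed for assembly and stability. In skeletal muscle the amount of complex I follows the content of mitochondria, which is higher in oxidative than in glycolytic fibres. In whole muscle, fewer mitochondria-rich cells and less RNA per cell cannot be told apart.

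Signals are MAS5 intensities as the authors computed them, and all differences below are on the log2 scale of that signal. The array carries bovine probes, so signals of different genes are not amounts of RNA, and differences were tested only between animals within a gene. Signals summed over a marker list are given as description and are weighted towards the brightest probe sets of the list. The arrays were alike in their medians (56.1 to 67 over all probe sets). The summed signal of 6 fast fibre markers was between 119429 and 163981 on every array, and both satellite cell markers with a probe set (MYF5 and NCAM1) were below detection. No label gives a date or batch.

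The members varied less between animals than most detected genes. The standard deviation of log2 signal over the 40 animals had a median of 0.24 among members and of 0.38 among all detected genes, and 35 of the 38 members were below the latter value. All members but NDUFB5 (96.2) and NDUFA4L2 (171) had a mean signal of at least 671, while detected genes start at 61.8. Members were not compared with genes of like signal, so the lower spread cannot be told apart from their brightness. The steadiest were NDUFA1, a small membrane arm subunit encoded on the human X chromosome (SD 0.14), NDUFV2, an iron-sulphur protein of the NADH-binding end (SD 0.15), and NDUFA4 (SD 0.16). NDUFA1 lay between 12.39 and 12.82 in high muscling animals and between 12.46 and 13.03 in low muscling animals. NDUFV2 lay between 12.83 and 13.26 and between 12.87 and 13.54, respectively. Both ranges overlapped over most of their length.

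The most variable members were NDUFS5, an accessory subunit on the intermembrane space side of the membrane arm (SD 0.57), NDUFB5 (SD 0.51) and NDUFC1 (SD 0.44), both membrane arm subunits. NDUFB5 was the dimmest member, with a mean signal of 96.2 and a range of 45.9 to 164, so that some of its values fall under the detection limit. Its family means were between 6.31 (sire 2) and 6.80 (sire 17), with SDs of 0.39 to 0.60 within families. Sires of a muscling group were not told apart for NDUFB5 (adjusted p = 0.65, moderated F test of limma). NDUFC1 averaged 11.20 ± 0.50 (SD, n = 8) in sire 16 progeny and 10.94 ± 0.30 (n = 8) in sire 5 progeny. In sire 17 progeny its 5 values were 10.02, 10.04, 10.25, 10.42 and 11.06. The 3 high muscling families had NDUFC1 means of 10.53 to 10.66, between those of the low muscling families.

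**Figure D1:**
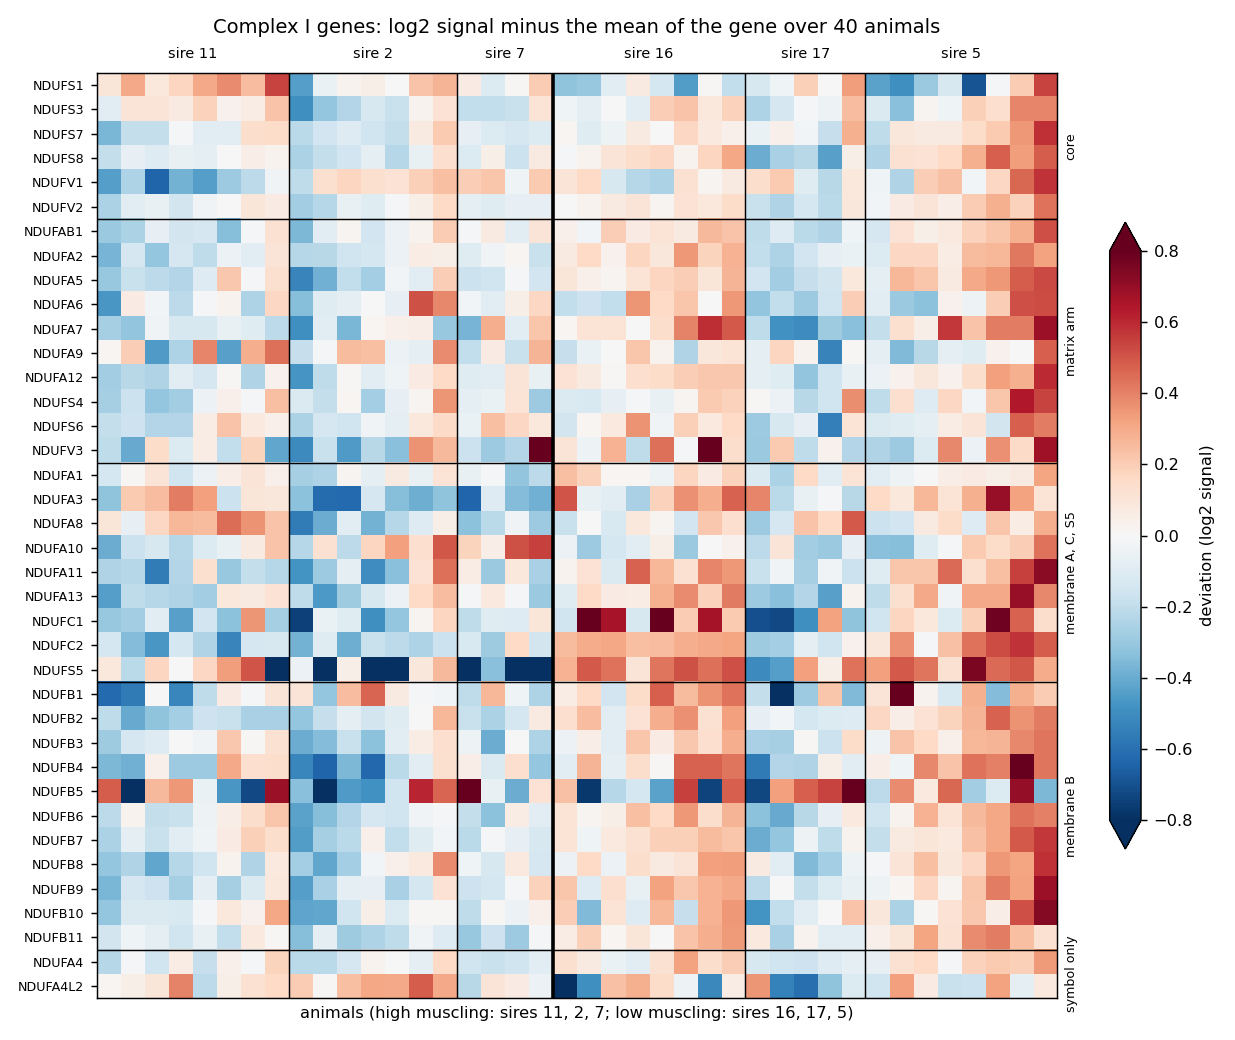
Deviation of log2 signal from the mean of each gene over 40 animals, for 38 genes (rows, grouped by place in the enzyme) and 40 animals (columns, grouped by sire and ordered within a sire by the mean deviation of all members). The colour scale ends at ±0.8. Sires 16 and 5 are mostly red, while sire 17 and the 3 high muscling families are mostly blue, and NDUFS1, NDUFA10, NDUFA9, NDUFA8 and NDUFB5 depart from this pattern.

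Complex I genes were mostly lower in the progeny of high muscling sires, and for 4 of them the difference passed the test: NDUFC2, NDUFB2, NDUFB11 and NDUFS5, all accessory subunits of the membrane arm. None was called higher. The comparison used limma with sire as a random block (correlation within sires 0.135) and called a gene at an adjusted p under 0.05 over the 6360 genes. Among all genes, 5.5% were called lower and 2.28% higher in high muscling. Before adjustment, 15 members had a p under 0.05, all lower in high muscling, against 21.8% of all genes in either direction. The difference was negative in 34 of 38 members and in 55.8% of all genes, with a median of -0.16 over members and of -0.04 over all genes. Under quantile normalization or median centring of the arrays 32 members remained negative, since NDUFA6 (-0.01) and NDUFS6 (-0.02) turned positive. With all probe sets averaged per gene, 30 were negative.

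NDUFC2, which sits in the membrane arm beside NDUFC1, had the smallest p of the members. Its log2 signal was 11.63 to 12.32 in high muscling animals (median 11.98) and 11.87 to 12.73 in low muscling animals (median 12.41). The ranges overlapped, but all 19 high muscling animals were below the median of the low muscling animals. Sire 7 progeny had 11.87, 12.01, 12.04 and 12.32, sire 11 progeny 11.63 to 12.03 (median 11.96) and sire 2 progeny 11.76 to 12.06 (median 11.95). Of the low muscling families, sire 16 progeny stood close together at 12.40 to 12.47 (SD 0.03, n = 8) and sire 5 progeny spread over 12.14 to 12.73 (median 12.56). Sire 17 progeny, at 11.87, 11.88, 11.997, 12.09 and 12.19, were at the level of the high muscling families. The difference of high minus low was -0.39 (SE 0.088, adjusted p = 0.0047), which is 1.31-fold higher signal in low muscling.

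NDUFB2, a small subunit of the outer part of the membrane arm, was 11.94 to 12.61 in high muscling animals (median 12.17) and 12.21 to 12.82 in low muscling animals (median 12.48). Of the high muscling animals, 18 of 19 were below the median of the low. Sire 11 progeny were lowest, at 12.09 ± 0.08 (SD, n = 8), followed by sire 7 at 12.22 ± 0.14 (n = 4), sire 17 at 12.26 ± 0.04 (n = 5) and sire 2 at 12.27 ± 0.18 (n = 7). The families of sire 16 (12.54 ± 0.15, n = 8) and sire 5 (12.60 ± 0.15, n = 8) stood above these 4. The high minus low difference was -0.29 (SE 0.077, adjusted p = 0.013). A second probe set of NDUFB2, dimmer but above detection, was 0.10 higher in high muscling and hardly followed the one used here (r = 0.17 over 40 animals), so the call rests on 1 probe set.

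NDUFB11, a membrane arm subunit whose gene is X-linked in humans, was 11.63 to 12.05 in high muscling animals (median 11.82) and 11.71 to 12.38 in low muscling animals (median 12.07). Here too all 19 high muscling animals were below the median of the low. It was the only called member whose family means did not overlap between the groups: 11.78 (sire 7), 11.79 (sire 2) and 11.90 (sire 11) against 11.91 (sire 17), 12.12 (sire 16) and 12.19 (sire 5). The gap between sires 11 and 17 was small beside the SDs of 0.09 and 0.13 within them. The high minus low difference was -0.26 (SE 0.070, adjusted p = 0.017). Family means of NDUFS7 and NDUFS4 also did not overlap, which makes 3 of 38 members, all lower in high muscling, against 11.4% of all genes.

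NDUFS5 had the largest difference of the members, -0.67 (SE 0.20, adjusted p = 0.029, 1.59-fold), and also the widest spread. High muscling animals ranged from 9.73 to 11.52 (median 10.97) and low muscling animals from 10.51 to 11.77 (median 11.45). Within the high muscling families the SD was 0.53 (sire 11), 0.60 (sire 2) and 0.44 (sire 7), and in sire 17 progeny it was 0.43. In contrast, it was 0.14 in sire 16 progeny and 0.18 in sire 5 progeny. Sire 7 progeny had 9.73, 9.82, 10.22 and 10.69, all below the lowest value of sires 16 and 5 (11.12 and 11.14). The values of sire 17 progeny were 10.51, 10.58, 11.07, 11.34 and 11.45. The low values thus occurred in all 4 animals of sire 7 but only in part of those of sires 11, 2 and 17. Of the 8 sire 11 animals, 7 had values of 10.80 to 11.52, which overlap those of sires 16 and 5.

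**Figure D2:**
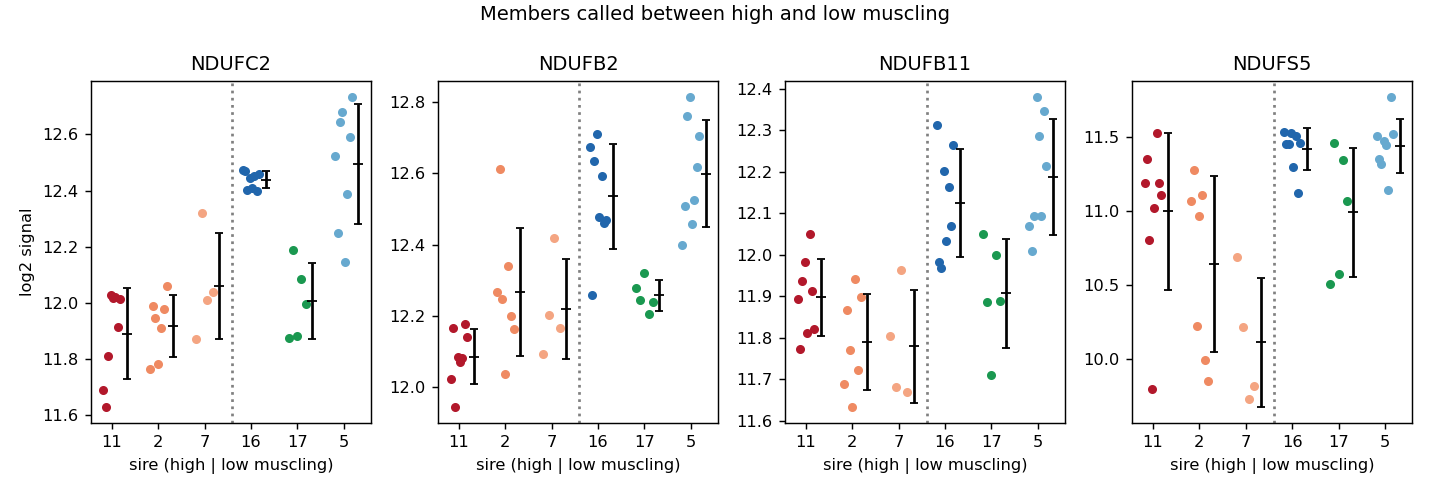
Log2 signal of NDUFC2, NDUFB2, NDUFB11 and NDUFS5 in each animal (points) by sire, with the family mean and SD in black. High muscling sires (11, 2 and 7) are left of the dotted line and low muscling sires (16, 17 and 5) right of it. For NDUFC2 and NDUFB2 the 5 points of sire 17 lie among those of the high muscling families, and for NDUFS5 the high muscling animals range from 9.73 to 11.52.

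The remaining members were not called. NDUFA3, a single-span membrane subunit, came next (-0.34, SE 0.12, adjusted p = 0.066). It was not lower in all high muscling families: sire 11 progeny had 11.78 ± 0.25 (SD, n = 8), against 11.28 ± 0.17 (n = 7) in sire 2 progeny and 11.30 ± 0.22 (n = 4) in sire 7 progeny. The low muscling families had NDUFA3 means of 11.65 (sire 17), 11.85 (sire 16) and 11.93 (sire 5).

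By place in the enzyme, the share of negative differences was similar but the median differed. Of the 11 NDUFB subunits, which build the outer membrane arm, all 11 were negative (median -0.20, 2 called, 7 with p under 0.05). Of the 9 other membrane arm accessory subunits, 8 were negative (median -0.29, 2 called). Of the 10 accessory subunits of the matrix arm, 9 were negative with a median of -0.15, and limma called 0 of them (3 with p under 0.05). Of the 6 core subunits of the matrix arm tested, 5 were negative with a median of -0.11, and limma called 0 (1, NDUFS7, with p under 0.05). Differences between these sets were not tested. NDUFS7 carries the last iron-sulphur cluster before ubiquinone, and its difference was -0.16 (SE 0.079, adjusted p = 0.23).

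The exceptions were 4 members with a positive difference. NDUFS1, the large iron-sulphur subunit of the NADH-binding end, was 0.22 higher in high muscling (SE 0.11, adjusted p = 0.25), and its family means were 12.63 (sire 11), 12.38 (sire 2) and 12.41 (sire 7) against 12.19 (sire 16), 12.44 (sire 17) and 12.21 (sire 5). For this gene it was sires 16 and 5 that were low. NDUFA10, a subunit with a nucleoside kinase fold, had a difference of 0.16 (adjusted p = 0.42) and NDUFA9, which lies near the ubiquinone site, of 0.07 (adjusted p = 0.77). NDUFA4L2 had a difference of 0.24 (SE 0.13, adjusted p = 0.28) at a low mean signal of 171, with its lowest value, 6.31, in a sire 16 animal. A dimmer probe set of NDUFA4L2 went the other way (-0.53) and correlated negatively with the one used (r = -0.28).

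**Figure D3:**
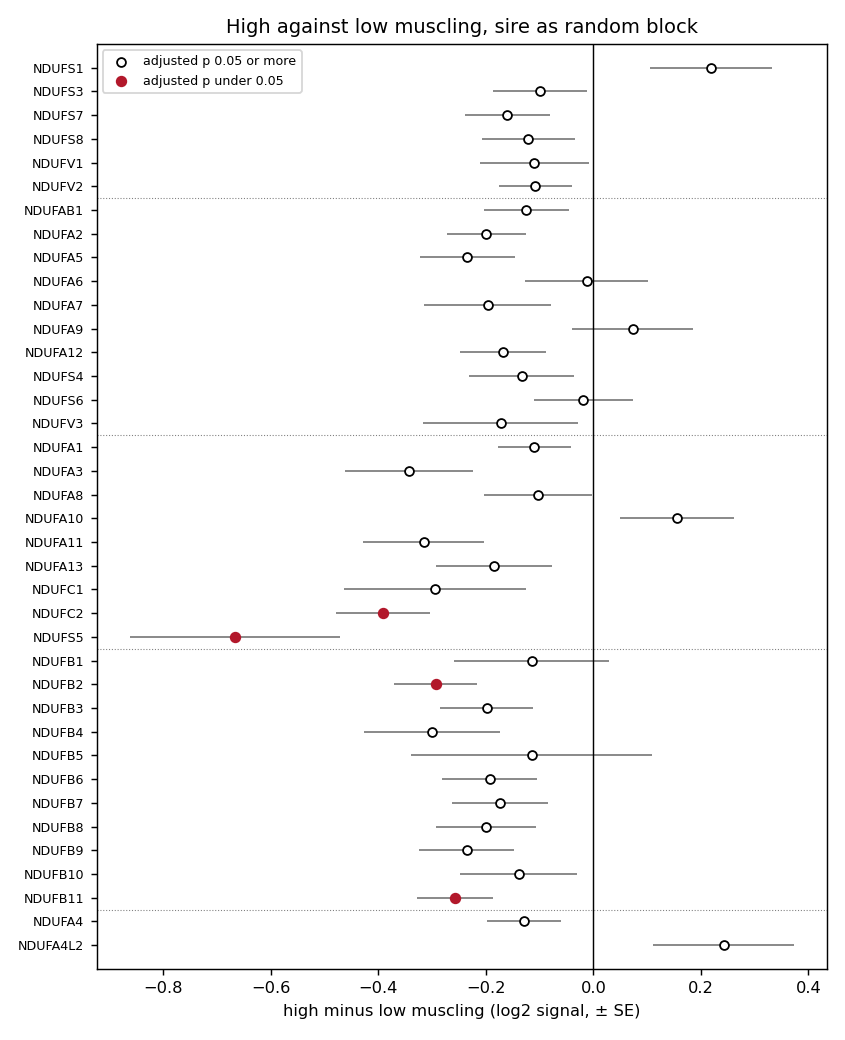
High minus low difference of log2 signal (points) with its SE (bars) for 38 genes, from limma with sire as a random block, grouped from top to bottom into matrix arm core, matrix arm accessory, other membrane arm accessory, NDUFB and symbol-only members. Filled points are the 4 genes with an adjusted p under 0.05. Of the 38 points, 34 lie left of 0.

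The calls between muscling groups rested on few families. Without the progeny of sire 16, or without those of sire 5, limma called 0 members (5 and 4 with p under 0.05), and with the 6 sire means as samples it also called 0 (1 with p under 0.05). Without the progeny of sire 17 it called 22, all 4 named above among them. Calls over all 6360 genes moved in the same way. They were 495 in the main fit, 29 without sire 16, 23 without sire 5, 0 with sire means and 1221 without sire 17. Without sire 2, or without sire 7, NDUFC2 and NDUFB2 were called, and with quantile normalization NDUFC2 and NDUFS5. Without sire 11, NDUFB2 was not called (adjusted p = 0.059), while NDUFA3 (-0.54, adjusted p = 0.0014) and NDUFA8 were. The median difference was -0.10 without sire 5, -0.13 without sire 16 and -0.25 without sire 17, so the direction held in each of these settings.

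Within muscling groups, complex I genes differed between sires, and most of those called were lowest in sire 17 among the low muscling sires. The moderated F test of limma over differences among sires of a muscling group called 16 of 38 members (26 with p under 0.05), against 22% of all genes called (35.6% with p under 0.05). Sire 17 had the lowest mean of the low muscling families in 34 of 38 members, compared with 50.1% of all genes, and in 14 of the 16 called. Without the progeny of sire 17 the F test called 3 members and without those of sire 11 it called 5. Calls over all genes fell too, from 1402 in the main fit to 846 without sire 17 and 407 without sire 11. NDUFV1, NDUFA3 and NDUFA8 lost their call without sire 11 (adjusted p of 0.61, 0.53 and 0.95) and kept it without sire 17. Under quantile normalization sire 17 was lowest in 30 members and under median centring in 31. The mean deviation of the 38 members from their average over animals was -0.12 in sire 17 progeny (range -0.20 to 0.05), 0.11 in sire 16 progeny (0.01 to 0.25) and 0.17 in sire 5 progeny (-0.08 to 0.42). In the high muscling families it was -0.08 (sire 11), -0.11 (sire 2) and -0.08 (sire 7), which is near the value of sire 17.

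Against sire 5, sire 17 progeny were lower in 35 of 38 members (median -0.31, against -0.08 over all genes). Limma called 19 of them lower and 0 higher (24 with p under 0.05, all lower), while 8.46% of all genes were called lower and 3.52% higher. With median centring 10 were called and with quantile normalization 12, all of them lower. The share of calls over all genes that were lower in sire 17 was 70.6%, and 56.96% with median centring. The called members came from every part of the enzyme. Of the NDUFB subunits 8 of 11 were lower, of the matrix arm accessory subunits 5 of 10, of the other membrane arm subunits 3 of 9 and of the core subunits 2 of 6, together with NDUFA4.

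NDUFA7, an accessory subunit of the matrix arm, had the largest called difference between sires 17 and 5, -0.65 (SE 0.13, adjusted p = 0.00078, 1.57-fold). Its values in sire 17 progeny were 9.03, 9.05, 9.20, 9.25 and 9.33. All 5 were below the lowest value of sire 5 progeny (9.34 to 10.22, median 9.86) and of sire 16 progeny (9.54 to 10.12, median 9.66). The high muscling families had NDUFA7 means of 9.38 (sire 11), 9.37 (sire 2) and 9.55 (sire 7), all above that of sire 17 (9.17). With the mean over all probe sets, which adds a probe set of NDUFA7 below detection, its F test was not called (adjusted p = 0.70) and its high minus low difference turned positive. NDUFC2 differed by -0.49 (SE 0.095, adjusted p = 0.00056).

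NDUFS8, a core subunit with iron-sulphur clusters on the path to ubiquinone, was 11.20, 11.24, 11.37, 11.41 and 11.68 in sire 17 progeny. Of these values, 4 were lower than every sire 16 animal (11.63 to 11.94), while sire 5 progeny ranged from 11.40 to 12.12. The difference from sire 5 was -0.47 (SE 0.096, adjusted p = 0.00096). Sire 17 progeny had the lowest mean of the 6 families also for this gene, 11.38 against 11.52 to 11.59 in the high muscling families. NDUFB6, a membrane arm subunit, was 12.26, 12.33, 12.44, 12.59 and 12.74 in sire 17 progeny, 12.68 to 13.01 in sire 16 progeny and 12.50 to 13.10 in sire 5 progeny. Its difference from sire 5 was -0.40 (adjusted p = 0.0072).

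Against sire 16, limma called 10 members lower in sire 17, 6.53% of all genes being called in that direction. The median of sire 16 minus sire 17 was 0.26 over members and 0.07 over all genes. The largest called difference was that of NDUFC1 (0.84, SE 0.20, adjusted p = 0.0053), and the others were NDUFA7, NDUFB1, NDUFA13, NDUFC2, NDUFS8, NDUFB6, NDUFB7, NDUFA2 and NDUFB2 (0.28 to 0.59). In the other direction 0 members passed (3.24% of all genes), and all 22 members with a p under 0.05 were lower in sire 17. Of all genes called in this pair, 33.2% were lower in sire 16, and 46.9% with median centring. With median centring 4 members were called, with quantile normalization 6, and without progeny 79 of sire 17 also 6. The comparisons of sire 17 with sires 16 and 5 share the same 5 animals.

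Progeny of sires 16 and 5 were not told apart. Of the members, limma called 0 in either direction and 0 had a p under 0.05, against 0.0157% of all genes called in each direction and 6.51% with p under 0.05. The differences of members ranged from -0.21 to 0.26, and 31 of 38 were negative, that is lower in sire 16. Likewise 0 members were called between sires 2 and 7 (0% of all genes in each direction, 5.58% with p under 0.05), with 1 member, NDUFS5, at an unadjusted p under 0.05 (0.53 higher in sire 2, adjusted p = 0.89). These counts do not show that the families were alike, as sire 7 had 4 animals.

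**Figure D4:**
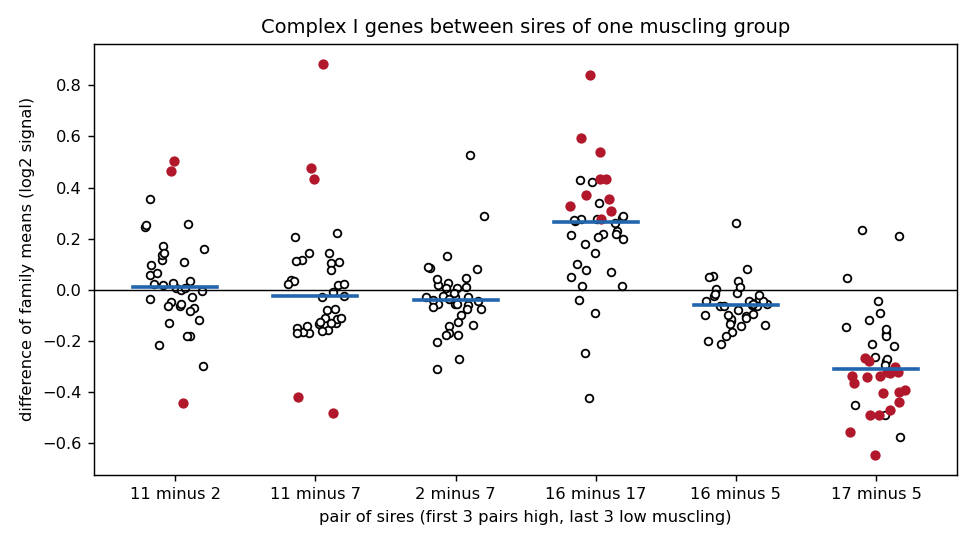
Difference of family means (log2 signal) of 38 genes for the 6 pairs of sires within a muscling group. Filled points have an adjusted p under 0.05 and the blue line is the median. Between sires 17 and 5 the median is -0.31 with 19 filled points, all negative, and between sires 16 and 17 it is 0.26 with 10, all positive, while pairs among high muscling sires have medians near 0.

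Within high muscling, a few members were called between sire 11 and the other sires, in both directions. By limma, 5 of 38 members had a p under 0.05 against sire 2, compared with 29.5% of all genes. Against sire 7 it was also 5 of 38, compared with 25.5%. Sire 11 progeny were higher than sire 2 progeny in NDUFA8 and NDUFA3 and lower in NDUFV1, which makes 2 members called higher (6.24% of all genes) and 1 lower (8.9%). Against sire 7, NDUFA8, NDUFA3 and NDUFS5 were called higher (3 members, 4.37% of all genes) and NDUFV1 and NDUFA10 lower (2 members, 6.18%), NDUFA10 by -0.42 (adjusted p = 0.043). The median over members was 0.01 against sire 2 and -0.03 against sire 7, and it changed sign with the scaling (-0.0049 against sire 2 with quantile normalization, 0.06 against sire 7 with median centring). Of all genes called, 58.8% were lower in sire 11 than in sire 2 and 44.8% with median centring. Against sire 7 these shares were 58.6% and 34.2%.

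NDUFV1, the core subunit that binds NADH and flavin, was 11.08 to 11.69 in sire 11 progeny (median 11.38) and 11.51 to 11.96 in sire 2 progeny (median 11.85). Sire 7 progeny had 11.68, 11.91, 11.93 and 11.94. Of the 8 sire 11 animals, 7 were below every animal of the other 2 families. The difference was -0.44 against sire 2 (SE 0.10, adjusted p = 0.0028) and -0.48 against sire 7 (SE 0.12, adjusted p = 0.0092). The low muscling families had means of 11.70 (sire 16), 11.74 (sire 17) and 11.88 (sire 5), and NDUFV1 was one of the members in which sire 17 was not the lowest of them.

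NDUFA8, an accessory subunit on the intermembrane space side, went the other way, with 13.20 to 13.72 in sire 11 progeny (median 13.51) and 12.71 to 13.32 in sire 2 progeny (median 13.04). Sire 7 progeny had 12.94, 12.98, 13.05 and 13.24. The difference was 0.46 against sire 2 (SE 0.10, adjusted p = 0.0020) and 0.43 against sire 7 (SE 0.12, adjusted p = 0.019). The means of sires 16, 17 and 5 were close together at 13.27, 13.36 and 13.32, so sire 11 was the highest and sire 2 the lowest of the 6 families. NDUFA3 differed by 0.50 against sire 2 (SE 0.12, adjusted p = 0.0042) and 0.48 against sire 7 (SE 0.15, adjusted p = 0.030). NDUFS5 was 0.88 higher in sire 11 than in sire 7 (SE 0.25, adjusted p = 0.017). Without progeny 69 or without progeny 98 of sire 7, 0 of the 3 members higher in sire 11 than in sire 7 were called.

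Across animals the members rose and fell together. Over 40 animals, the 703 pairs of members had a median Pearson r of 0.49, against 0.0086 over all pairs of detected genes, and 54 pairs were negative. The animals share arrays and families, and this is a description with no test. With the mean of each sire removed the median was 0.43, and it was 0.35 within high muscling and 0.52 within low muscling. The closest pair was NDUFA5 and NDUFB3 (r = 0.91), and the most opposed was NDUFA10 and NDUFS5 (r = -0.43). NDUFB subunits had a median r of 0.65 among themselves and matrix arm accessory subunits of 0.60. The value was 0.42 for the core subunits of the matrix arm and 0.39 for the other membrane arm subunits. Other lists, described below, also had positive medians. These were 0.50 within the ATP synthase, 0.40 within complex IV, 0.39 within complex III and 0.37 within complex II. They were 0.72 within fast and 0.57 within slow fibre markers, and 0.12 within assembly factors. Between members and ATP synthase genes the median r was 0.51.

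The members most typical of the set were NDUFA2 (median r of 0.72 with the others), NDUFA5 (0.70) and NDUFV2 (0.69), which are 2 accessory subunits of the matrix arm and 1 core subunit. NDUFA2, a subunit with a thioredoxin fold, averaged 12.49 ± 0.11 (SD, n = 8) in sire 16 progeny and 12.52 ± 0.16 (n = 8) in sire 5 progeny. In the other 4 families it averaged 12.18 to 12.25. NDUFA5 had means of 12.76 (sire 16) and 12.90 (sire 5) against 12.45 to 12.54 elsewhere. NDUFV2 had 13.18 and 13.27 in these families against 12.97 to 13.05. These 3 genes thus put the 6 families in the same 2 sets, sires 16 and 5 above the rest. Of the other probe sets of NDUFA5 that were above detection, 1 differed between high and low in the same direction (-0.26) and 1 in the opposite direction (0.23).

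The least typical were NDUFA4L2 (median r -0.0025), NDUFS1 (0.02) and NDUFB5 (0.07). NDUFS1 changed most when the mean of each sire was removed, from 0.02 to 0.56. Within families it followed the other members, while its family means ran against theirs. NDUFA10 (0.28 to 0.51) and NDUFA8 (0.26 to 0.49) moved in the same way. In contrast, NDUFS5 went from 0.38 to 0.10 and NDUFA3 from 0.36 to 0.11, so that these genes followed the other members between families and little within them. NDUFA4L2 (0.11) and NDUFB5 (0.15) remained low, and both were among the dimmest probe sets.

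**Figure D5:**
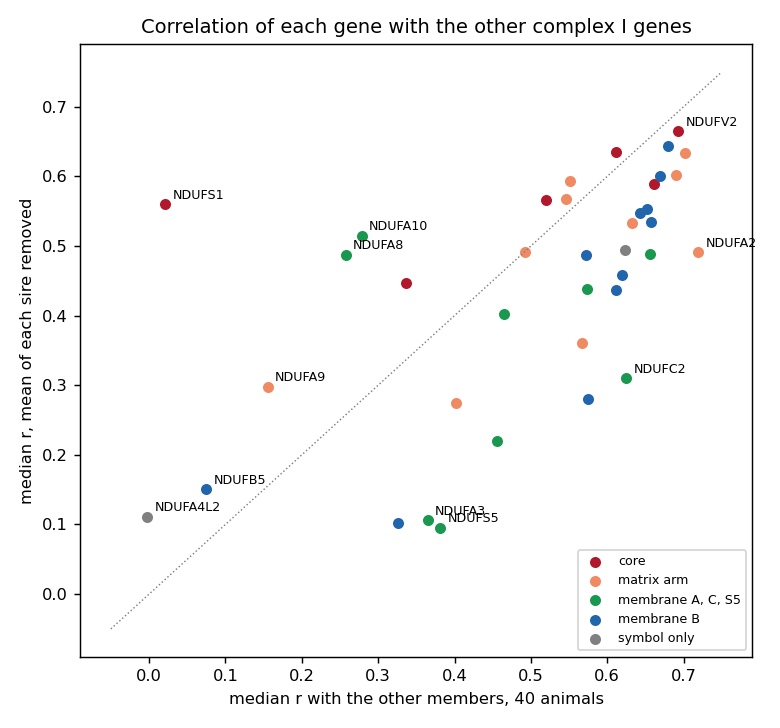
Median Pearson r of each of 38 genes with the other 37, over 40 animals (horizontal axis) and after removal of the mean of each sire (vertical axis), coloured by place in the enzyme. On the dotted line both are equal. NDUFS1, NDUFA10 and NDUFA8 lie above the line, NDUFS5, NDUFA3 and NDUFC2 below it, and NDUFV2 and most NDUFB genes near its upper end.

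In complexes III and IV and the ATP synthase, too, the progeny of sires 16 and 5 were above those of the other 4 sires on average. The mean deviation of 16 ATP synthase genes had r = 0.92 with that of complex I over 40 animals (Spearman's rho 0.90), of 9 complex III genes 0.87 (rho 0.82) and of 11 complex IV genes 0.83 (rho 0.81). It was lower for complex II (0.59, rho 0.50, 4 genes) and for 10 complex I assembly factors (0.57, rho 0.52). These 5 relations have no test, as the families separate the animals. Between high and low muscling, limma called 3 of 16 ATP synthase genes lower, 2 of 9 of complex III and 2 of 11 of complex IV, and none higher. Median differences were -0.12, -0.05 and -0.20, against -0.04 over all genes. For complex II, which feeds electrons from succinate and bypasses complex I, 0 of 4 were called (0 with p under 0.05), and the median was 0.07. Of the assembly factors, which build complex I but leave it when it is complete, 0 of 10 were called (2 with p under 0.05), with a median of -0.11.

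By gene, the smallest p of each complex in the F test among sires belonged to ATP5ME and ATP5MF of the ATP synthase, UQCR11 and UQCRH of complex III, and COX6A1 and COX4I1 of complex IV. All 6 were lower in sire 17 than in sire 5, by limma, with differences of -0.58 and -0.54, -0.43 and -0.39, and -0.76 and -0.36 (adjusted p of 0.00013 to 0.0034). Between high and low muscling all of these but COX4I1 (adjusted p = 0.069) were called lower in high muscling. Of the 10 assembly factors, DMAC2 was called in the F test (adjusted p = 0.0078) and FOXRED1 came next (adjusted p = 0.072). The DMAC2 difference between sires 17 and 5 was -0.20 (adjusted p = 0.49). For complex II the smallest p belonged to SDHD (adjusted p = 0.23) and SDHC (adjusted p = 0.25).

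Markers of fibre types and of other cells were measured on the same arrays. Of the 6 slow and 6 fast fibre markers tested, limma called 0 between high and low muscling (1 with p under 0.05 in each list). All 6 fast markers had a positive difference (0.05 to 0.32, median 0.06), that is higher in high muscling. Of the 6 slow markers, 4 had a negative one (median -0.08). The summed signals of each list overlapped widely between the groups. Slow markers had 61396 to 109012 in high and 61683 to 107706 in low muscling. Fast markers had 123127 to 163981 (median 139026) in high and 119429 to 158195 (median 130306) in low muscling. The part of fibre types in the complex I differences was not tested. The mean deviation of slow fibre markers had r = 0.27 with that of complex I, and that of fast fibre markers r = 0.03. MYH7, the slow myosin heavy chain, was higher in sire 17 than in sire 5 (0.53, adjusted p = 0.035), which is opposite to the complex I genes. Among slow markers TNNT1 came next (0.19, adjusted p = 0.43), and MYH1 and TNNI2 were the fast markers with the smallest p (adjusted p of 0.39 and 0.40 in the F test).

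Some genes of fibroblasts and matrix were lower in high muscling. Of 6 tested, 4 were called lower in high muscling by limma, COL3A1 (-1.08, adjusted p = 0.025), COL1A2 (-0.78, 0.028), COL1A1 (-0.83, 0.034) and DCN (-0.37, 0.0499). Their summed signal with LUM and PDGFRA was 4745 to 11650 in high and 7376 to 21951 in low muscling animals, and none was at 0. Their mean deviation by family was -0.49 (sire 11), -0.04 (sire 2), -0.36 (sire 7), 0.30 (sire 16), -0.05 (sire 17) and 0.44 (sire 5), and it had r = 0.30 with that of complex I over animals. The sire 2 and sire 17 families, from different muscling groups, thus had nearly the same deviation. PDGFRA had a difference of 0.30 (adjusted p = 0.72) and was not called, nor was LUM (-0.52, adjusted p = 0.067). LUM had, with COL1A1, the smallest p of the list in the F test among sires. The part of these genes or cells in the complex I differences was not tested.

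The other markers gave few calls, but some followed the families of complex I. Of the leukocyte markers, PTPRC and ITGAM were below detection, and of the 4 tested 0 were called (2 with p under 0.05). All 4 had negative differences (median -0.34), and their summed signal was 523 to 876 in high and 550 to 1374 in low muscling animals. Their mean deviation was 0.37 in sire 16 and 0.28 in sire 5 progeny, and -0.24 (sire 11), -0.21 (sire 2), -0.31 (sire 7) and -0.13 (sire 17) in the others. Over animals, r with the mean deviation of complex I was 0.46 for adipocyte (rho 0.45), 0.32 for leukocyte (rho 0.27) and 0.07 for endothelial markers (rho 0.04). It was 0.40 (rho 0.34) for HBA, the only erythroid marker tested. Of 4 adipocyte markers 0 were called (0 with p under 0.05) and of 5 endothelial markers 0 (1 with p under 0.05), although PECAM1 was lower in sire 17 than in sire 5 (-0.56, adjusted p = 0.0061). VWF, at a mean signal of 67.6, went the other way in that pair and was not called (0.43, adjusted p = 0.64). The median of sire 17 minus sire 5 over the 5 endothelial markers was -0.11. In the F test among sires, PECAM1 (adjusted p = 0.0082) and VWF (0.013) were called, while CIDEC (0.28) and LPL (0.46) among adipocyte markers and CSF1R (0.43) and CD3E (0.51) among leukocyte markers were not. HBA, at a mean signal of 131, was not called between high and low muscling (0.08, adjusted p = 0.88). The erythroid markers HBB, ALAS2, AHSP and SLC4A1 were below detection. The part of these cells in the differences between families was not tested. Over animals, array measures had an r with the mean deviation of complex I of -0.19 for the array median, -0.14 for 9 spiked controls, -0.11 for the 3' to 5' ratio of GAPDH and 0.12 for that of actin (rho -0.15, -0.12, -0.10 and 0.03). However, family means of the spiked controls did not overlap between the muscling groups. Their mean log2 signals were 11.13 (sire 11), 11.11 (sire 2) and 11.12 (sire 7) against 10.99 (sire 16), 11.04 (sire 17) and 11.05 (sire 5). Family means did not overlap in 19.3% of all genes either. Single arrays overlapped in the spiked controls, with 11.03 to 11.25 in high and 10.86 to 11.27 in low muscling. Sire 7 arrays had medians of 65.6 to 66.95. The part of these array differences in the complex I comparison was not tested.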

How the data were processed

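Biotin-labelled cRNA of 40 animals was hybridised to the GeneChip Bovine Genome array. The authors deposited MAS5 intensity values, on a linear scale, for 24128 probe sets; no MAS5 version is given in the sources used here. Each array had been scaled so that its mean, trimmed by 2% at each end, is 200. Log2 of the signal was taken without further normalization. Of 24016 probe sets other than controls, 13292 have 1 gene symbol in the platform annotation, 86 have several and 10638 have none. A gene was represented by the probe set with the highest mean, and was tested if that mean reached the median over probe sets (61.8). Detection calls were not used.

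Limma 3.58.1 (R 4.3.3) compared high with low muscling, with sire as a random block (duplicateCorrelation), and sires within a muscling group with a moderated F test and 6 pairwise contrasts. P-values were adjusted by the Benjamini-Hochberg method over all 6360 genes. The fits were tested on simulated data. Other computations used Python 3.11.15 with numpy 2.4.6, pandas 2.3.3 and scipy 1.17.1. Precision is limited by how many arrays there are.

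The members and gene lists were chosen with earlier results of these data known, so no list was tested as a set. Values are given for members called between muscling groups (with fewer than 5 called, the 5 with the smallest p), the 8 with the smallest p in the F test, the 3 with the highest and lowest median r and the 3 with the largest and smallest SD, and of other lists for the 2 genes with the smallest p in the F test. Other genes were named after their values were seen. Alternatives were median centring or quantile normalization of arrays, a floor (20th percentile of signals), all probe sets of a gene averaged, no filter, no block, sire means, and families or animals left out. Leaving out animals in the F test was added after the data were seen.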

Additional observations from a re-analysis of the deposited data

Results flagged for a closer look

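Within sire families, 10 values of 9 genes stood apart from the rest of their family by Dixon's test, among 228 combinations of gene and family. Chance alone flags about 1 in 20 groups, and these 10 are close to that share. Of these values, 4 were in sire 7 progeny (n = 4), 3 in sire 5, 2 in sire 11 and 1 in sire 2.

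In sire 7 progeny, progeny 69 had high log2 signals of NDUFS3 (12.82, the others 12.52 to 12.53) and NDUFV3 (11.11, the others 10.02 to 10.14). Progeny 58 of the same sire was high for NDUFA5 (12.62, the others 12.46 to 12.48) and low for NDUFV1 (11.68, the others 11.91 to 11.94). NDUFV1 was also low in progeny 5 of sire 2 (11.51, the others 11.83 to 11.96), the animal with the lowest mean deviation of complex I in its family (-0.33).

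In sire 5 progeny, progeny 32 was high for NDUFA1 (13.03, the others 12.62 to 12.78) and NDUFA9 (12.76, the others 11.94 to 12.32), and it had the highest mean deviation of complex I in its family (0.42). Progeny 34 was high for NDUFA3 (12.37, the others 11.75 to 11.99). In sire 11 progeny, progeny 51 was high for NDUFC1 (11.09, the others 10.31 to 10.65) and progeny 35 was low for NDUFS5 (9.80, the others 10.80 to 11.52), although the mean deviation of complex I in progeny 35 was the highest of its family (0.07).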

How the results depend on the processing

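The 4 members called lower in high muscling became 2 with quantile normalization, 16 with no block, 0 with sire means as samples, and, with the progeny of a sire left out, 0 (sire 16), 0 (sire 5), 2 (sire 2), 2 (sire 7) and 22 (sire 17). With no block 1 member (NDUFS1) was called higher. Calls over all genes, 495 in the main fit, were 494 with quantile normalization, 1586 with no block and 0 with sire means. They were 29 without sire 16, 23 without sire 5, 290 without sire 2, 272 without sire 7 and 1221 without sire 17. The median difference kept its sign in all 13 alternatives (-0.25 to -0.09). The 16 members of the F test among sires became 10 with median centring, 5 without sire 11 and 3 without sire 17, and 8 to 18 with 1 animal of sires 7 or 17 left out (9 without progeny 39 and 8 without progeny 79 of sire 17). Over all genes the F test called 1402 in the main fit, 1311 with median centring, 407 without sire 11 and 846 without sire 17. With 1 of these animals left out it called 1250 to 1385 genes. Members higher in sire 11 than in sire 7 were 0 to 2 with 1 animal of sire 7 left out (0 without progeny 69 or 98), and those lower in sire 11 were 1 to 2 (1 without progeny 58, 69 or 98), and 1 with median centring, the mean over all probe sets or no filter. Members higher in sire 16 than in sire 17 were 6 with quantile normalization, 4 with median centring and 6 to 9 with 1 animal of sire 17 left out. Members lower in sire 17 than in sire 5 were 12 with quantile normalization and 10 with median centring, and 14 to 18 with 1 animal left out. The median r over pairs of members was 0.30 with the mean over all probe sets and 0.35 to 0.55 in the other alternatives. The high minus low differences of NDUFA6 and NDUFS6 (and of NDUFV1 without sire 11) turned positive in some of these settings, both scalings among them. With the mean over all probe sets those of NDUFA4, NDUFA7, NDUFAB1, NDUFB1 and NDUFS3 turned positive and that of NDUFA4L2 negative. The causes of these shifts were not tested. No paired analysis was possible because replicate numbers only name animals, and no animal or sire belongs to both muscling groups.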
